A study of Mus musculus with 12 samples.

Results

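The genes described here are 10 mouse genes of the piRNA pathway and of germline transposon control: Piwil2, Ddx4, Mael, Tdrd1, Tdrd5, Tdrd7, Tdrd9, Tdrd12, Tdrkh and Tex19.1. They were taken by symbol from a table of 24254 genes. All 10 were listed once, and all 10 passed the filter on low values that left 11687 genes for testing. RNA was sequenced from mouse oocytes at the germinal vesicle stage, when meiosis is still arrested, in 12 libraries, 4 for each of 3 groups. GTWT oocytes have a gene trap in Marf1 and received wild type MARF1 mRNA by injection. GTD272 oocytes have the same trap and received MARF1 mRNA mutated at position 272. GT oocytes carry the trap, and the labels do not say whether they were injected or cultured. Every library described here thus has the gene trap. The injected oocytes were held for 48 h in medium with milrinone, which blocks phosphodiesterase and so holds the meiotic arrest. The sample labels name oocytes, whereas a protocol text speaks of lysed ovaries, and more than 1 RNA method is named, which the labels do not settle. Mice were C57BL/6, 3 weeks old and primed with 5 IU of PMSG for 46 h, and each library held RNA of 80 pooled oocytes. Whether samples with the same label are separate animals or cultures is not stated, so the p-values reflect sample-to-sample spread that could be technical.

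PIWI proteins carry short guide RNAs, the piRNAs, that match transposons, cut transposon RNA and direct silencing of transposon DNA. They gather in germ granules near mitochondria, where proteins with Tudor domains bind their methylated arginines and hold the machinery together. In mice the pathway is best known from the male germ line, and mouse oocytes silence transposons largely through endogenous siRNAs made by Dicer, although they express many piRNA genes. MARF1 is a ribonuclease that mouse oocytes need to complete meiosis, and oocytes without it are known for raised transposon RNA. It carries LOTUS domains, a module that it shares with TDRD5 and TDRD7.

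Levels are in FPKM, which divides a gene's fragments by its transcript length and by the size of the library, so genes can be compared per length. Differences are on the log2(FPKM + 1) scale, which understates changes of low genes. A gene was called, and is said to have risen or fallen, at a limma p-value under 0.05 after Benjamini-Hochberg adjustment over the 11687 genes. The relative depth of the libraries was 55.4% to 100% of the deepest. The FPKM of all genes summed to between 476475 (GTWT replicate 4) and 2523590 (GTWT replicate 3), and the cause of this spread was not tested. Marf1 was at 17.5 FPKM on average in GTWT, 9.12 in GTD272 and 1.60 in GT, with no overlap between groups. All 12 oocyte markers were detected, with sums of 10490 to 11093 FPKM in GTWT, 10884 to 11340 in GTD272 and 9981 to 10400 in GT. Of 14 granulosa cell markers 5 were tested. Their sum was 121 to 131 FPKM in GTWT, 128 to 138 in GTD272 and 143 to 152 in GT. Most of it was Nr5a2, at 103 FPKM on average in GTWT, 109 in GTD272 and 125 in GT. Kitl followed, at 12.7, 12.9 and 14.4 FPKM in the same order of groups. Cyp19a1 went the other way without passing, at 6.67, 5.04 and 4.87 FPKM. Inhba was at 1.26, 1.37 and 1.13 FPKM, and Nr5a1 at 0.885, 0.806 and 1.03. Amh was at or under 0.261 FPKM on average in every group. In every GT library the granulosa sum was higher and the oocyte sum lower than in every injected library. The oocyte markers did not all move alike. Gdf9 averaged 4171 FPKM in GTWT, 4197 in GTD272 and 3736 in GT, and Zar1 1729, 1828 and 1495. Bmp15 went the other way, at 2111, 2151 and 2271 FPKM, as did Mos, at 579, 657 and 717, and Oosp1, at 427, 487 and 507. Every other oocyte marker averaged higher in both injected groups than in GT. Of the 12 oocyte markers limma called 5 higher and 2 lower in GTWT against GT, beside 16.6% called of all tested genes. In GTD272 against GT it called 4 higher and 0 lower, beside 2.95%. Of the 5 tested granulosa markers it called 0 higher and 1 lower in each of these comparisons, beside the same shares. The part of these shifts in the results below was not tested. Of 8 theca and stroma markers 4 were at 0 in every library and none was tested. Of 10 blood and endothelial markers 7 were at 0 in every library. Only Pecam1 was tested, at 10.4 FPKM on average in GTWT, 10.8 in GTD272 and 10.3 in GT. Cd68 and Lyz2 were at or under 0.650 and 0.304 FPKM on average in every group.

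Tdrd1, Tdrd9 and Tex19.1 are the members called in any comparison below. Their promoters are shown with that of Tex19.2, the near neighbour of Tex19.1. Each window runs from 250 bases before to 50 after the annotated start in RefSeq (GRCm38.p6, the assembly of mm10) and is written 5′ to 3′ on the strand of the gene, with CG dinucleotides in capitals. For genes with several windows in the RefSeq promoter table its most upstream one is given. The starts behind the Tdrd1 and Tdrd9 windows lie downstream of the gene starts printed with these genes below.
Tdrd1 (chr19:56825959-56826258, + strand): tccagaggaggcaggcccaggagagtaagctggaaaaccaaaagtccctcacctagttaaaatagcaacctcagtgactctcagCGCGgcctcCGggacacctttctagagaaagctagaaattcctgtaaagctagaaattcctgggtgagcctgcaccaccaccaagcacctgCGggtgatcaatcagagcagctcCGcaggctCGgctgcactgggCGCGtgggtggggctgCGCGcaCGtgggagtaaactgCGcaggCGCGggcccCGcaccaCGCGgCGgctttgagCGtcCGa
Tdrd9 (chr12:111971309-111971608, + strand): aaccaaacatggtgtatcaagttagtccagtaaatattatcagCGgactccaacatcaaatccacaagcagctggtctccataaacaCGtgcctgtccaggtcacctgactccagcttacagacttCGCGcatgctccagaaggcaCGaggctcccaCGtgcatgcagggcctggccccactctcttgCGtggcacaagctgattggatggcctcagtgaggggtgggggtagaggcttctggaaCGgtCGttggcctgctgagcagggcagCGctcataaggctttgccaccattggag
Tex19.1 (chr11:121145893-121146192, + strand): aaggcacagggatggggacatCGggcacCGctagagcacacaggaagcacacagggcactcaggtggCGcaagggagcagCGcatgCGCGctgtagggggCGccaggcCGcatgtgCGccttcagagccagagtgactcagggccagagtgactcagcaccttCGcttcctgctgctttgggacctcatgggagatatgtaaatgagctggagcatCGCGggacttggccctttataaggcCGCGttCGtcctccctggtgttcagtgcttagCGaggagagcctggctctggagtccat
Tex19.2 (chr11:121118628-121118927, - strand): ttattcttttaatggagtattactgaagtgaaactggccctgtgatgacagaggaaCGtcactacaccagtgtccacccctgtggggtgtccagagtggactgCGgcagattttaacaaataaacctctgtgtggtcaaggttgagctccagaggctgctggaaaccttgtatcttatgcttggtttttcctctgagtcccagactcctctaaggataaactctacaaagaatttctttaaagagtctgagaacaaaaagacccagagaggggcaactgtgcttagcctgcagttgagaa
The Tdrd1 window held 20 CG dinucleotides, that of Tdrd9 10, that of Tex19.1 16 and that of Tex19.2 2, against a median of 7 over 32851 RefSeq windows of the same length. At least as many were present in 26.5% of all windows for Tdrd1, 43.5% for Tdrd9, 33.0% for Tex19.1 and 85.9% for Tex19.2. The E-box CACGTG, a palindrome that contains a CG, occurred 1 time in the Tdrd1 window, 2 times in that of Tdrd9 and in neither Tex19 window, and 7.15% of all windows hold it. The windows of Mael and Ddx4, which were not called in any comparison, also held it 1 time each. Those of Tdrd5, Tdrd7, Tdrd12 and Tdrkh, likewise not called, did not hold it. The core AACNG of sites for MYB factors, searched on both strands, occurred 1 time each in the Tdrd1 and Tdrd9 windows, 3 times in that of Tex19.2 and not in that of Tex19.1. It is present in 80.3% of all windows. The NOBOX element TAATTG, searched on both strands, was in none of these 4 windows and is in 7.9998% of all windows. The window of Tdrkh, which was not called, held it 2 times. These matches describe the letters of the windows and nothing more.

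Tex19.1 was by far the most abundant of the 10 genes and Tdrd9 the least. In GTWT the order of mean FPKM was Tex19.1 (372), Ddx4 (80.9), Tdrd1 (61.7), Mael (43.7), Tdrd12 (31.4), Tdrd5 (21.001), Piwil2 (20.8), Tdrkh (11.1), Tdrd7 (6.51) and Tdrd9 (4.40). Only Tdrd5 and Piwil2 among neighbours in that order had overlapping libraries. In GTD272 the order was the same, and the libraries of Tdrd1 and Mael, Mael and Tdrd12, Tdrd5 and Piwil2, and Tdrd7 and Tdrd9 overlapped. In GT, Mael (46.3) stood above Tdrd1 (44.0) with overlapping libraries, Tdrd5 and Piwil2 overlapped again, and the remaining neighbours did not. The place of Tdrd1 was the one difference in the order between the groups.

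**Figure D1:**
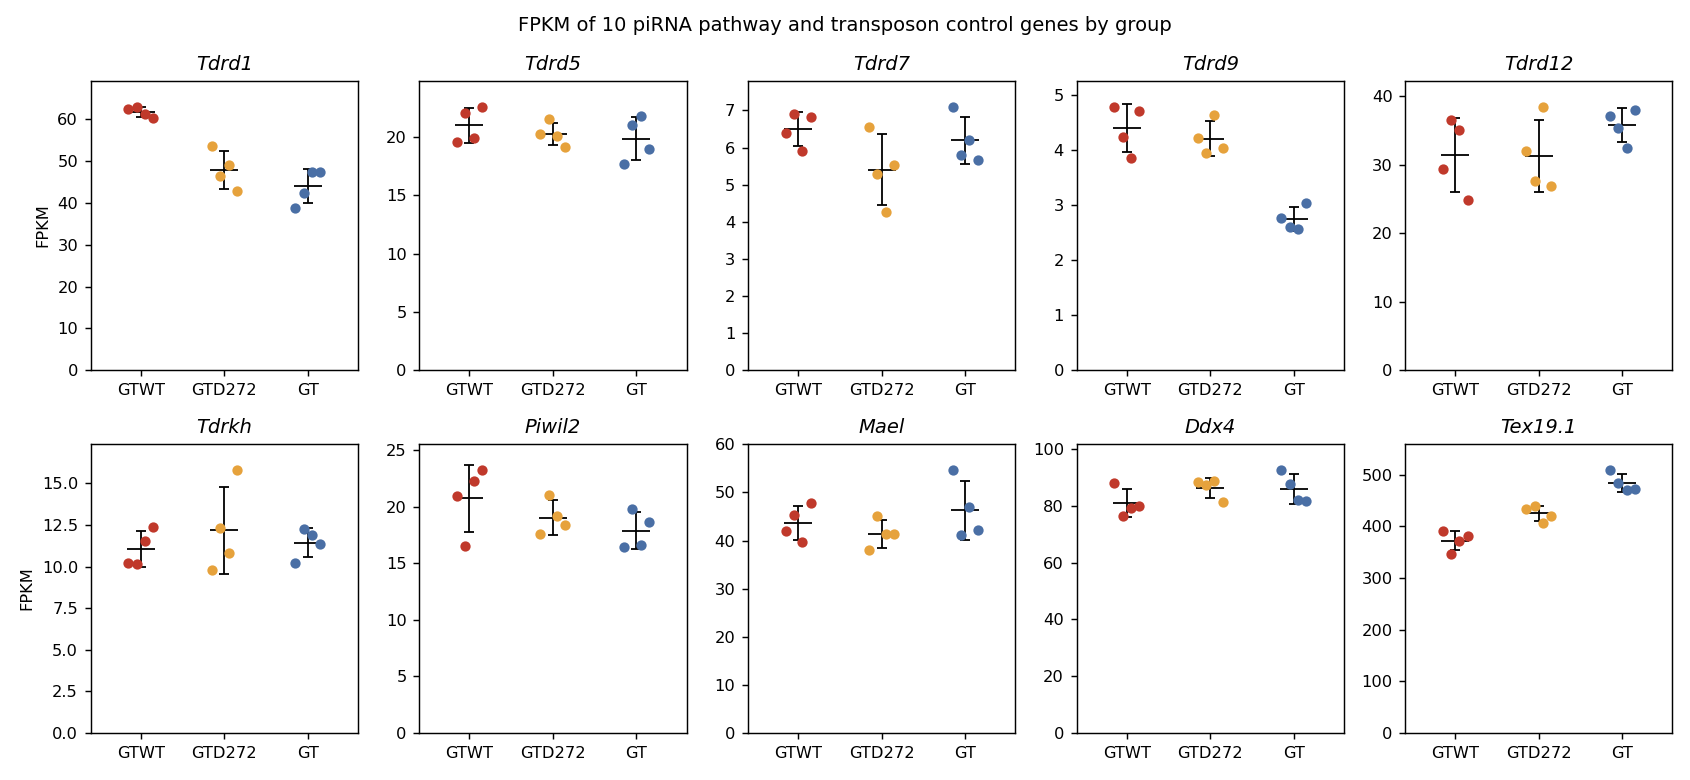
FPKM (y axis, from 0) of the 10 genes in each of the 4 GTWT, 4 GTD272 and 4 GT libraries (x axis), 1 panel per gene. Points are libraries, and bars are the mean and SD. The GTWT libraries of Tdrd1 sit between 60.4 and 62.8, above every GTD272 and GT library, and Tex19.1 steps up between the 3 groups with no overlap.

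Comparing GTWT with GT asks what differs between trapped oocytes that received the wild type mRNA and trapped oocytes. Of the 10 genes, Tdrd1 and Tdrd9 rose and Tex19.1 fell, while 7 did not pass. Over all tested genes 16.6% were called, 6.14% as higher and 10.5% as lower, beside which 3 of 10 genes stand. Libraries did not overlap for 9.32% of all tested genes in the higher direction and for 12.6% in the lower. At the authors' deposited q-values 18.6% of all tested genes and 3 of the 10 were called. The median log2 difference of the 10 genes was 0.01, and that of all tested genes was -0.01. Comparing GTD272 with GT asks the same for the mutated mRNA, and here Tdrd9 rose, Tex19.1 fell and 8 genes did not pass, with 2.95% of all tested genes called (1.41% higher and 1.54% lower). Libraries did not overlap for 5.37% of all tested genes (higher) and 7.59% (lower). At an unadjusted p under 0.05, 2 of the 10 and 19.0% of all tested genes passed. At the authors' deposited q-values 6.31% of all tested genes and 1 of the 10 were called. The median was 0.02 for the 10 genes and -0.01 for all. Comparing GTWT with GTD272 sets the injected groups against each other. Marf1 RNA also differed between them, at 17.5 FPKM on average in GTWT and 9.12 in GTD272. The mutation therefore cannot be told apart from the amount of Marf1 RNA here. Tdrd1 was higher and Tex19.1 lower in GTWT, and 8 genes did not pass, where 2.46% of all tested genes were called (0.625% higher and 1.84% lower). Libraries did not overlap for 4.26% of all tested genes (higher) and 5.93% (lower). At an unadjusted p under 0.05, 2 of the 10 and 18.4% of all tested genes passed. At the authors' deposited q-values 5.22% of all tested genes and 1 of the 10 were called. The median was 0.05 for the 10 genes and -0.01 for all. The first and second of these comparisons share the GT libraries, and the third shares libraries with both. The labels give injection and 48 h of culture for GTWT and GTD272 but not for GT. In both comparisons with GT the MARF1 mRNA therefore cannot be told apart from injection and culture.

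**Figure D2:**
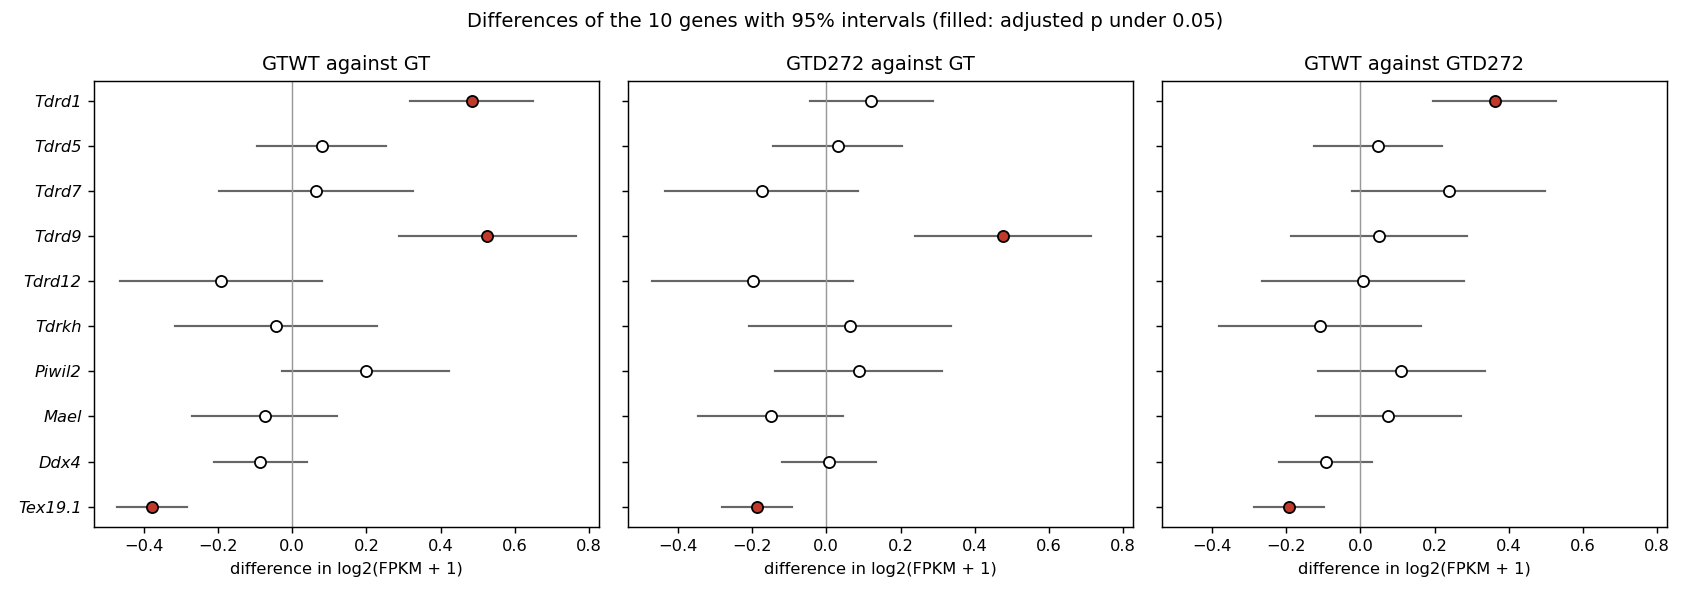
Difference in log2(FPKM + 1) (x axis) of each of the 10 genes (y axis) for GTWT against GT, GTD272 against GT and GTWT against GTD272. Points are estimates over 4 libraries per group, lines are 95% intervals, and filled points have an adjusted p under 0.05. Tdrd1 is filled at 0.48 and 0.36 in the panels of GTWT, Tdrd9 at 0.53 and 0.48 in those against GT, and Tex19.1 at -0.38, -0.19 and -0.19 in all 3.

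Tdrd1 encodes a scaffold with several Tudor domains that binds the PIWI protein MILI in mouse germ granules (chromosome 19, 56826171 to 56870012, GRCm38, 25 exons). Its FPKM was 62.4, 62.8, 61.2 and 60.4 in GTWT, 53.6, 46.4, 49.0 and 42.8 in GTD272, and 38.9, 42.5, 47.4 and 47.3 in GT. Every GTWT library was above every library of the other groups, and the GTD272 and GT libraries overlapped. The GTWT libraries were also close together, with a coefficient of variation of 1.81%, against 9.47% in GTD272 and 9.39% in GT. Tdrd1 rose by 0.48 in GTWT against GT (SE 0.08, limma adjusted p = 0.00124), and its mean was 40.2% higher. GTWT was also higher than GTD272, by 0.36 (SE 0.08, adjusted p = 0.0263), with a mean 28.7% higher. Against GT, GTD272 differed by 0.12 (95% interval -0.04 to 0.29, adjusted p = 0.432) and did not pass. The call against GT was kept when any single library was left out (adjusted p up to 0.00528). That against GTD272 was lost without GTD272 replicate 2 (0.0784) or 4 (0.0671) or GTWT replicate 1 (0.0529), 2 (0.0629) or 4 (0.0556), and without a mean-variance trend (0.0601), while the difference stayed between 0.31 and 0.42 when libraries were left out. The authors' deposited table gives Tdrd1 q-values of 0.000573 for GTWT and GT and 0.00189 for GTWT and GTD272.

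Tdrd9 encodes an RNA helicase with a Tudor domain, needed in the mouse male germ line to silence LINE-1 elements (chromosome 12, 111971488 to 112068854, GRCm38, 36 exons). Its FPKM was 4.78, 4.24, 3.86 and 4.72 in GTWT, 4.22, 3.94, 4.65 and 4.04 in GTD272, and 2.76, 2.61, 2.57 and 3.04 in GT. Both injected groups lay above every GT library and overlapped each other. Relative to GT, Tdrd9 rose by 0.53 in GTWT (SE 0.11, adjusted p = 0.00632). In GTD272 it rose by 0.48 (SE 0.11, adjusted p = 0.0388). The mean of GTWT was 60.2% and that of GTD272 53.3% higher than that of GT. Between GTWT and GTD272 the difference was 0.05 (95% interval -0.19 to 0.29, adjusted p = 0.870). The call in GTWT was kept without any single library (adjusted p up to 0.0202), whereas that in GTD272 was lost without any one of the 4 GT or 4 GTD272 libraries (0.0531 to 0.104). It was also lost with no filter on low values (0.0657) and when only the GTD272 and GT libraries were fitted (0.0600). Without those libraries the difference in GTD272 was 0.44 to 0.51. Tdrd9 was the least abundant of the 10 genes, and it did not reach the stricter floor of 5 FPKM. The table gives Rd3l the same locus as Tdrd9, and Rd3l was listed at 0 in all 12 libraries.

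Tex19.1 encodes a mammal-specific protein that restrains retrotransposons in mouse germ cells and placenta (chromosome 11, 121146143 to 121148314, GRCm38, 3 exons). Its FPKM was 390.2, 347, 371 and 380.4 in GTWT, 433, 439, 407 and 420.2 in GTD272, and 509, 485, 469 and 472 in GT. The 3 groups did not overlap: each GTWT library was below each GTD272 library, and each GTD272 library was below each GT library. Relative to GT, Tex19.1 fell by 0.38 in GTWT (SE 0.04, adjusted p = 0.00016), and the mean was 0.770 times that of GT. In GTD272 it fell by 0.19 (SE 0.04, adjusted p = 0.0401), and the mean was 0.879 times that of GT. GTWT was 0.19 lower than GTD272 (SE 0.04, adjusted p = 0.0370), at 0.876 times its mean. Tex19.1 was 1 of 15 genes, 0.128% of those tested, that were called in all 3 comparisons. Only the call of GTWT against GT was kept when any single library was left out (adjusted p up to 0.000978).

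The smaller steps of Tex19.1 were near the threshold. The call in GTD272 against GT was lost without GT replicate 1 (adjusted p = 0.114), 2 (0.0881), 3 (0.0684) or 4 (0.0610) or GTD272 replicate 1 (0.0718), 3 (0.108) or 4 (0.0761), and after quantile normalization (0.0601). Between GTWT and GTD272 the call was lost when GTWT replicate 2 (0.0869), 3 (0.0601) or 4 (0.0612) was dropped, likewise GTD272 replicate 1 (0.0824), 2 (0.102) or 4 (0.0663) and GT replicate 2 (0.0588) or 4 (0.0525), when those 2 groups alone were fitted (0.0907), and after quantile normalization (0.163). Both were lost with no filter (0.0735 and 0.0732) and without a trend (0.144 and 0.138), and the authors' deposited table gives q-values of 0.0965 and 0.196. The differences themselves stayed between -0.20 and -0.16 in GTD272 against GT and between -0.21 and -0.16 in GTWT against GTD272 when libraries were left out.

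Tex19.2, a paralog of Tex19.1 with a testis role in mice, lies 27465 bases away on the opposite strand (chromosome 11, 121116215 to 121118677, GRCm38). Its FPKM was 306, 243, 308 and 311 in GTWT, 321, 319.8, 322 and 355 in GTD272, and 390.1, 359.6, 335 and 374 in GT. The GTWT libraries were below all others, and GTD272 and GT overlapped. Tex19.2 fell by 0.33 in GTWT against GT (SE 0.08, adjusted p = 0.0105), a call lost after quantile normalization (0.0627). In GTD272 against GT the difference was -0.14 (adjusted p = 0.321), and between GTWT and GTD272 it was -0.18 (adjusted p = 0.220). The longest transcripts of the pair match at 77.9% of 1578 aligned bases, but 2.95% of the 50-base stretches of Tex19.1 occur in Tex19.2, and how the reads of those stretches were assigned is not given. Their ratio, Tex19.1 over Tex19.2, was 1.21 to 1.43 in GTWT, 1.18 to 1.37 in GTD272 and 1.26 to 1.40 in GT, and these ranges overlap.

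The PIWI protein of the list, Piwil2 or MILI in mice, binds piRNAs and cuts transposon RNA (chromosome 14, 70372477 to 70436898, GRCm38). Its FPKM was 20.9, 16.6, 22.3 and 23.2 in GTWT, 17.6, 21.1, 19.22 and 18.3 in GTD272, and 16.5, 19.8, 16.6 and 18.6 in GT. GTWT replicates 1, 3 and 4 were above every GT library and replicate 2 was near the lowest. The difference in GTWT against GT was 0.20 (95% interval -0.03 to 0.42, adjusted p = 0.221). Without that library it was 0.297 and still did not pass (adjusted p = 0.0504). In GTD272 against GT it was 0.09 (-0.14 to 0.31), and between GTWT and GTD272 it was 0.11 (-0.12 to 0.34).

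Ddx4, the mouse vasa homolog and an RNA helicase of germ granules, was the second most abundant gene (chromosome 13, 112598333 to 112652633, GRCm38). It was at 80.9 ± 4.99 FPKM in GTWT, 86.4 ± 3.52 in GTD272 and 85.96 ± 5.20 in GT (SD, n = 4 each), and all groups overlapped. Its 95% intervals, the narrowest of the 10 genes after those of Tex19.1, were -0.21 to 0.04 for GTWT against GT, -0.12 to 0.13 for GTD272 against GT and -0.22 to 0.03 for GTWT against GTD272. Mael, which encodes a germ granule protein needed for transposon silencing in the mouse male germ line (chromosome 1, 166201385 to 166238744, GRCm38), was at 43.7 ± 3.54 FPKM in GTWT, 41.4 ± 2.94 in GTD272 and 46.3 ± 6.15 in GT. GT replicate 1 was the highest Mael library at 54.7 FPKM. The intervals of Mael were -0.27 to 0.12, -0.34 to 0.05 and -0.12 to 0.27 in the same order of comparisons, and without GT replicate 1 the first estimate, -0.07, became 0.01.

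Tdrd5 and Tdrd7 encode the Tudor proteins with LOTUS domains, which act in germ granules of mouse spermatids. Tdrd5 (chromosome 1, 156255296 to 156304304, GRCm38) varied little, at 21.001 ± 1.501 FPKM in GTWT, 20.3 ± 0.963 in GTD272 and 19.9 ± 1.85 in GT (SD, n = 4 each). Its differences were 0.08, 0.03 and 0.05, and its intervals lay between -0.14 and 0.25. Tdrd7 (chromosome 4, 45965027 to 46034766, GRCm38) was at 6.40, 6.89, 5.90 and 6.84 FPKM in GTWT, 6.57, 5.28, 4.25 and 5.53 in GTD272, and 7.08, 5.80, 6.22 and 5.66 in GT. GTD272 had the lowest libraries of Tdrd7, but its replicate 1 lay among those of the other groups. GTWT against GTD272 gave 0.24 (95% interval -0.02 to 0.50, adjusted p = 0.323), the largest difference among members that did not pass.

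Tdrd12 encodes a helicase-like Tudor protein of secondary piRNA production in mice (chromosome 7, 35466941 to 35537784, GRCm38). Its FPKM was 29.4, 36.5, 35.0 and 24.8 in GTWT, 32.0, 27.7, 38.4 and 26.9 in GTD272, and 37.1, 35.3, 32.4 and 37.99 in GT. Some injected libraries were low and others were among the GT values, with a coefficient of variation of 17.1% in GTWT and 16.8% in GTD272, against 6.92% in GT. The differences from GT were -0.19 in GTWT (95% interval -0.46 to 0.08) and -0.20 in GTD272 (-0.47 to 0.07), and neither passed. Tdrkh encodes a mitochondrial Tudor and KH domain protein that helps trim piRNA ends in mice (chromosome 3, 94413243 to 94434854, GRCm38). It was at 11.1 ± 1.08 FPKM in GTWT, 12.2 ± 2.63 in GTD272 and 11.4 ± 0.899 in GT (SD, n = 4 each), with GTD272 replicate 4 the highest library at 15.8. Its differences were -0.04, 0.06 and -0.11, and none passed. In GENCODE M21, 39.1% of the 50-base stretches of the longest Tdrkh transcript lie in Oaz3 on the opposite strand. Oaz3 was at 0 to 1.96 FPKM in GTWT, 0 to 0.585 in GTD272 and 0 to 2.58 in GT, and since no source says that strand was used, reads of that stretch cannot be told apart.

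Across the 12 libraries, which differ in depth and group, Pearson's r on the log2(FPKM + 1) scale was 0.67 between Tdrd1 and Tdrd9, -0.87 between Tdrd1 and Tex19.1 and -0.80 between Tdrd9 and Tex19.1, as a description. The genes whose profile over the 12 libraries was most like that of Tdrd1 were Cgn, Ptpn11 and Eif4e1b (r of 0.951, 0.949 and 0.947). Cgn, a tight junction protein gene, averaged 23.2 FPKM in GTWT, 17.4 in GTD272 and 16.5 in GT. Most like Tdrd9 were Slc6a7, Zmynd19 and Fam189b (0.978, 0.968 and 0.961), with Slc6a7, a proline transporter gene, at 31.1, 30.2 and 20.2 FPKM in the same order of groups. Most like Tex19.1 were Strn3, Sos2 and Tef (0.979, 0.973 and 0.970), and Strn3, which encodes a striatin-family subunit of PP2A complexes, was at 32.9, 44.3 and 55.5 FPKM.

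Beyond the 10 genes, 34 other genes of the piRNA pathway or with Tudor domains were listed, 30 of them were in the table and 27 passed the filter. In GTWT against GT, Wdr77, Lbr, Mybl1 and Tex19.2 fell, Akap1 rose and 22 did not pass, beside 16.6% called of all tested genes, with a median of -0.04. Of the same 27 genes limma called 0 in GTD272 against GT, where 4 genes had an unadjusted p under 0.05 and the authors' deposited table called 0. Of all tested genes limma called 2.95% there, 19.0% had such a p, and the authors' deposited table called 6.31%. In GTWT against GTD272, Wdr77 and Mybl1 were lower, Akap1 was higher and 24 did not pass, beside 2.46% called of all tested genes. Of the other PIWI genes, Piwil1 was at 4.604 ± 0.305 FPKM in GTWT, 3.73 ± 0.498 in GTD272 and 3.75 ± 0.508 in GT (SD, n = 4 each), and Piwil4 was listed at 0 in every library. Piwil1 did not pass in any comparison.

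**Figure D3:**
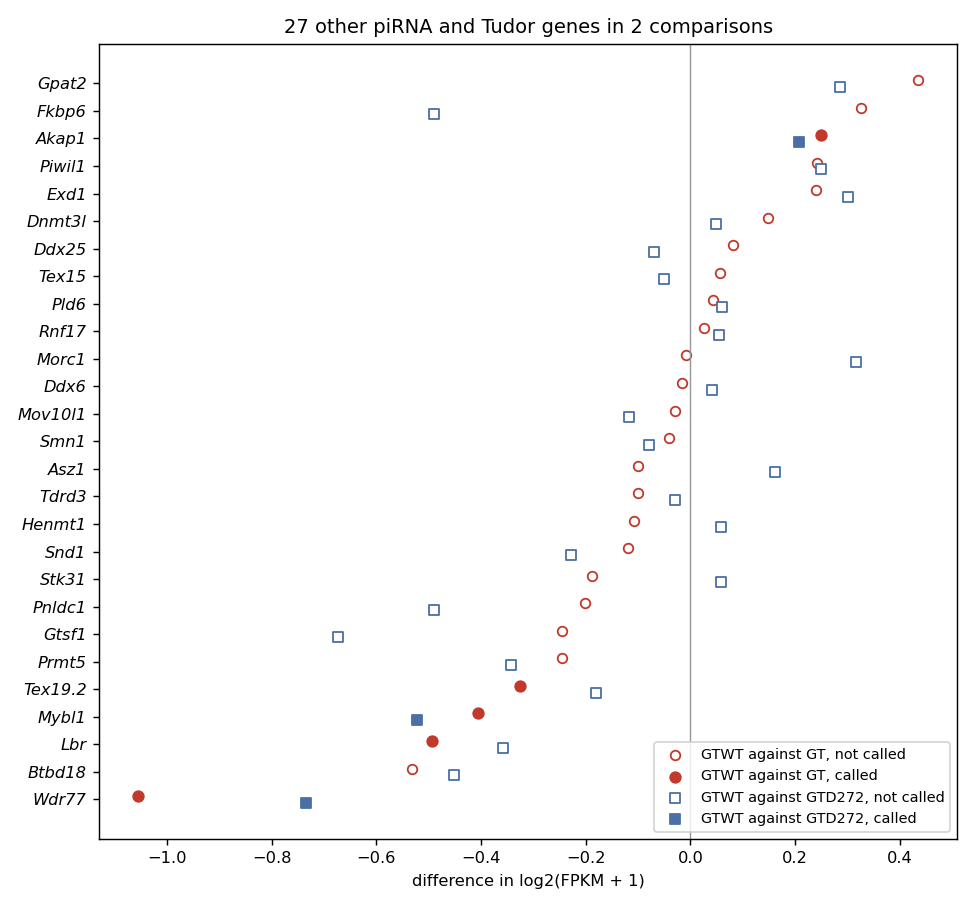
Difference in log2(FPKM + 1) (x axis) of 27 other piRNA and Tudor genes (y axis), for GTWT against GT (circles) and GTWT against GTD272 (squares), 4 libraries per group. Filled symbols have an adjusted p under 0.05. Wdr77 stands lowest in both, at -1.05 and -0.73, and Akap1 is filled on the right in both, at 0.25 and 0.21.

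Wdr77 encodes the partner of the arginine methyltransferase PRMT5, which puts on PIWI proteins the methyl marks that Tudor domains read. Its FPKM was 14.1, 10.1, 15.6 and 12.8 in GTWT, 25.1, 19.8, 23.5 and 21.3 in GTD272, and 29.2, 31.9, 27.7 and 24.2 in GT. The GTWT libraries lay below all others, and GTD272 and GT overlapped. In GTWT, Wdr77 fell by 1.05 relative to GT (SE 0.12, adjusted p = 0.000164), and set against GTD272 it was 0.73 lower (SE 0.12, adjusted p = 0.00736). Both calls were kept without any single library. In GTD272 against GT the difference was -0.32 (95% interval -0.58 to -0.05, adjusted p = 0.175). The table puts Wdr77 in 1 locus with Atp5f1, which averaged 38.9 FPKM in GTWT, 41.3 in GTD272 and 40.3 in GT and did not pass. Prmt5, named here after its values were seen, was at 3.42, 1.58, 3.07 and 3.10 FPKM in GTWT, 3.59, 3.55, 3.96 and 3.74 in GTD272, and 3.71, 3.38, 3.30 and 3.23 in GT, and did not pass.

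Mybl1 encodes A-MYB, the transcription factor that turns on piRNA genes in mouse spermatocytes. It was at 5.52, 5.48, 5.24 and 5.91 FPKM in GTWT, 8.14, 9.31, 8.96 and 7.28 in GTD272, and 8.33, 8.01, 8.01 and 6.42 in GT. The GTWT libraries were below all others. In GTWT, Mybl1 fell by 0.41 relative to GT (SE 0.11, adjusted p = 0.0192), and set against GTD272 it was 0.52 lower (SE 0.11, adjusted p = 0.0223). The first call was lost without GT replicate 1 (0.0579), 2 (0.0515) or 3 (0.0530), and the second without GTD272 replicate 2 (0.0729) or 3 (0.0527) or GTWT replicate 2 (0.05004), and when GTWT and GTD272 alone were fitted (0.0518).

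Akap1, an anchoring protein of the outer mitochondrial membrane with a Tudor domain, was at 189, 179, 171 and 176 FPKM in GTWT, 157, 147, 162 and 154 in GTD272, and 148, 149, 152 and 153 in GT. It rose by 0.25 in GTWT against GT (SE 0.04, adjusted p = 0.00208), a call kept without any single library, and was 0.21 higher in GTWT than in GTD272 (adjusted p = 0.0246). Dropping replicate 1, 2 or 4 of either group ended that second call (0.0503 to 0.0784), and so did fitting those groups alone (0.0866) and leaving out the trend (0.1004). The authors' deposited table gives a q-value of 0.0757. The table puts Akap1 in 1 locus with 4930556N13Rik, which averaged 0.464 FPKM in GTWT, 0.471 in GTD272 and 0.911 in GT. Lbr, an inner nuclear membrane protein with a Tudor domain that holds heterochromatin at the envelope, was at 46.2, 45.3, 65.3 and 47.0 FPKM in GTWT, 59.6, 74.8, 59.8 and 66.2 in GTD272, and 77.1, 77.8, 64.0 and 67.4 in GT. It fell by 0.49 in GTWT against GT (SE 0.11, adjusted p = 0.0105), with GTWT replicate 3 above the lowest GT library. Between GTWT and GTD272 Lbr differed by -0.36 (adjusted p = 0.115). Without GTWT replicate 3 that difference was -0.48 (adjusted p = 0.0147), and the authors' deposited table gives a q-value of 0.00742. By the mean over all libraries the most abundant genes of this list were Tex19.2, Akap1 and Dnmt3l, the cofactor of de novo DNA methylation, and Dnmt3l did not pass at 76.3 FPKM on average in GTWT, 73.8 in GTD272 and 68.9 in GT.

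**Figure D4:**
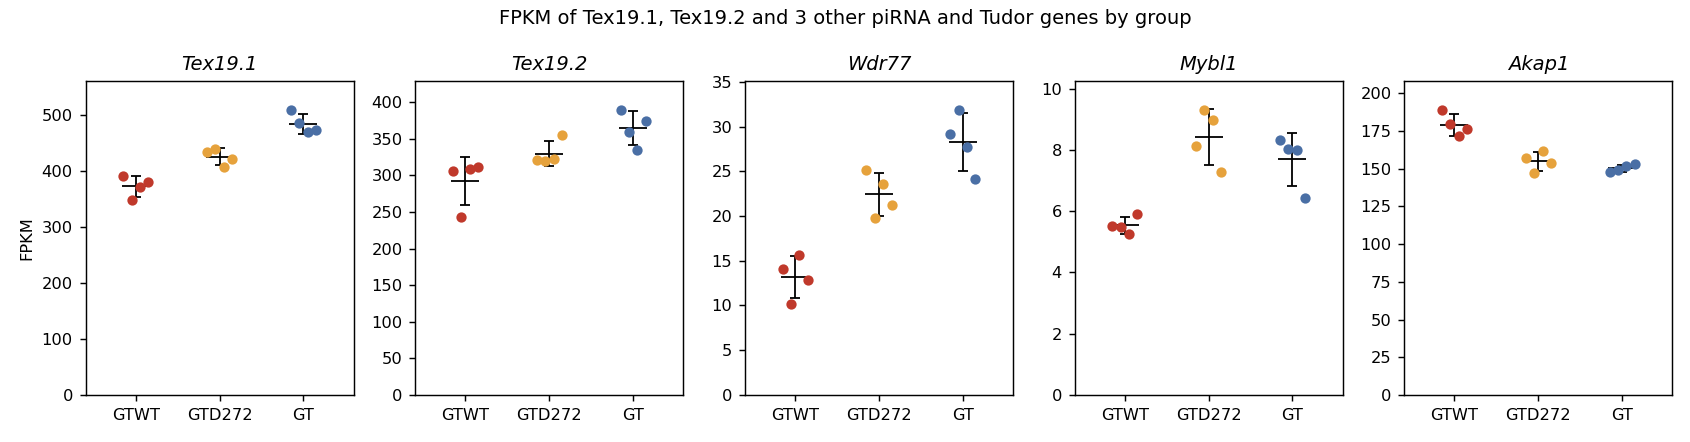
FPKM (y axis, from 0) of Tex19.1, Tex19.2, Wdr77, Mybl1 and Akap1 in each of the 4 GTWT, 4 GTD272 and 4 GT libraries (x axis). Points are libraries, and bars are the mean and SD. Wdr77 lies between 10.1 and 15.6 in GTWT and between 24.2 and 31.9 in GT, and Akap1 is highest in GTWT.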

How the data were processed

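RNA-seq of 12 oocyte libraries was read from 1 table. The authors aligned with TopHat2 2.0.13 to mm10 and made the deposited FPKM with Cufflinks 2.2.1, per the submitters' processing notes. Cuffdiff gave the deposited p-values and q-values, per the labels. The sources used here name no annotation. Header names stand 1 cell to the left of their values and were realigned. Groups and replicate numbers came from the titles.

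FPKM carry no counts, but in 87.5% of 68584 pairs of values below 0.5 FPKM the ratio was one of whole numbers (at most 5, tolerance 0.02 in log2, which covers 15.5% of the range), and this gave relative depth. A gene was kept where 4 or more libraries reached 1 FPKM. A single limma 3.58.1 model (R 4.3.3) took log2(FPKM + 1) of all 12 libraries with an intensity trend in the prior variance (residual degrees of freedom 9, prior 4.47), and was tested on simulated data. Intervals are at 95%. Gene coordinates and promoter windows are from RefSeq (GRCm38.p6). Exon counts and transcripts are from GENCODE M21, and transcripts were aligned with Biopython 1.88. The genes and lists were chosen with earlier results of these data known. Named genes are the 10 genes, Marf1, and of 3 companion lists the genes that passed in any comparison and the 3 most abundant. Tex19.2, as the neighbouring paralog of Tex19.1, and the 3 genes most like each called member were also named. Alternatives were other pseudocounts, filters, scalings, samples in the fit, a replicate block and leaving out each library.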

Additional observations from a re-analysis of the deposited data

Results flagged for a closer look

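In 72 groups of 4 libraries over 24 genes, the gap between the highest or lowest library and its neighbour was divided by the group's range, and 5 groups passed Dixon's 95% critical value. About 5% of groups are expected to do so by chance. None of these was a group of the 10 genes. Tex19.2 had its lowest GTWT library, replicate 2, apart from the others (0.926, at 243 FPKM against 306 to 311 in the rest of GTWT), and its highest GTD272 library, replicate 4 (0.934, at 355 against 319.8 to 322). Lbr had its highest GTWT library, replicate 3, apart (0.915), and Cbx3 likewise (0.835, replicate 3 of GTWT at 10.5 FPKM against 7.47 to 7.96). Mybl1 had its lowest GT library, replicate 4, apart (0.832).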

How the results depend on the processing

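The 3 calls of GTWT against GT (Tdrd1, Tdrd9 and Tex19.1) were kept under every alternative in which the gene was tested. Over the 7 calls of the 10 genes, 109 of 152 alternative values kept the call and 43 lost it. Of 505 values for the 23 differences that did not pass, 12 changed sign and 0 became called. Members called in GTD272 against GT numbered 0 with no filter or with the replicate block, and 1 with a floor of 5 FPKM, quantile normalization, 2 groups only, no trend or the authors' q-values. In GTWT against GTD272 they numbered 0 with no trend, and 1 with no filter, quantile normalization, 2 groups only, the replicate block or the authors' q-values. Leaving out single libraries gave 3 throughout, 0 to 2 and 0 to 2 members in the 3 comparisons.

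For GTD272 against GT, 165 genes were higher and 180 lower. These became 102 and 107 with no filter, 87 and 77 with no trend, 99 and 95 with the replicate block, and 319 and 419 by the authors' q-values. Without single libraries they were 60 to 168 and 50 to 207. For GTWT against GTD272, 73 were higher and 215 lower. Higher genes became 144 after quantile normalization and 38 with the replicate block, and lower genes 125 with no filter. Both became 27 and 97 with 2 groups only, 47 and 126 with no trend, and 176 and 434 by the authors' q-values, and without single libraries 29 to 70 and 85 to 246. For GTWT against GT, without single libraries, 483 to 726 were higher and 845 to 1216 lower. Quantile normalization moved the share of lower calls to 49.8% in GTWT against GT, where it was 63.04%, and to 56.0% in GTWT against GTD272, where it was 74.7%. The cause was not tested.

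Deviations from the group means gave no pairing by replicate number (12 pairs, r between -0.222 and 0.211, 2 above 0.1), and 0 of 12 libraries correlated best with their own number in both other groups. With the replicate block the adjusted p of Tdrd1 in GTWT against GTD272 was 0.0650, and in GTD272 against GT that of Tdrd9 was 0.0751 and that of Tex19.1 0.0523. The block also ended the calls of Akap1 (0.0561) and Dicer1 (0.0802) in GTWT against GTD272 and of Atrx (0.0687) and Chaf1b (0.0646) in GTWT against GT, and Zfp809 passed in GTWT against GTD272 (0.0482). FPKM give relative depth only, so no counting interval can be given for low genes such as Tdrd9.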

Other observations

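All 27 chromatin factors of transposon silencing that were listed passed the filter. In GTWT against GT, Dnmt1 and Chaf1b rose, Zfp809, Cbx3, Zmym2, Atrx and Rif1 fell and 20 did not pass, beside 16.6% called of all tested genes. In GTD272 against GT, Dnmt1 rose, Zmym2 fell and 25 did not pass, beside 2.95% called of all tested genes. The authors' deposited table called 4 of the 27 there, beside 6.31% of all tested genes. Dnmt1, the maintenance DNA methyltransferase, was at 85.8, 90.7, 78.9 and 91.5 FPKM in GTWT, 82.7, 75.8, 76.6 and 70.9 in GTD272, and 53.7, 63.8, 59.6 and 61.5 in GT. Both injected groups lay above every GT library. Dnmt1 rose by 0.53 in GTWT and by 0.35 in GTD272 against GT (limma adjusted p = 0.000292 and 0.0168), and its GTD272 call ended when GT replicate 1 (0.0545) or GTD272 replicate 1 (0.0524) was dropped. Zmym2, a zinc finger protein of repressor complexes, averaged 19.95 FPKM in GTWT, 21.5 in GTD272 and 27.5 in GT, and fell by 0.44 and 0.34 (adjusted p = 0.000853 and 0.0171). Its GTD272 call ended when GT replicate 1, 2 or 3 was dropped, and likewise GTD272 replicate 1 (0.0523 to 0.0554). Cbx3, which encodes the heterochromatin protein HP1 gamma, averaged 8.36 FPKM in GTWT, 12.4 in GTD272 and 16.1 in GT. Its difference in GTWT against GT was -0.86 (adjusted p = 0.00253). Zfp809, which recruits silencing to proviral DNA in mice, shares its locus in the table with 15 other genes, and the authors' deposited table gives it a q-value of 0.212 for GTWT and GT. Zfp809 averaged 2.59 FPKM in GTWT, 4.96 in GTD272 and 8.44 in GT, and fell by 1.36 in GTWT against GT. By the mean over all libraries Zfp57, Chaf1a and Trim28 were the most abundant of the list, and limma called none of these 3 in the 3 comparisons. Zfp57, which keeps imprints silent, averaged 1699 FPKM in GTWT, 1726 in GTD272 and 1688 in GT. Chaf1a passed in GTWT against GT with 2 groups only (0.0304), median rescaling (0.0426), quantile normalization (0.0220) and by the authors' deposited q-value (0.0412), and Trim28 in GTD272 against GT after quantile normalization (0.0484). The calls of Atrx, Chaf1b and Rif1 each ended when some single libraries were dropped, with adjusted p up to 0.0961 for Atrx, 0.0992 for Chaf1b and 0.0586 for Rif1. Atrx averaged 12.5 FPKM in GTWT, 12.7 in GTD272 and 16.4 in GT. Limma did not call it in GTD272 against GT, where the authors' deposited table gives a q-value of 0.00223.

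Between GTWT and GTD272 limma called 0 of these 27 genes, 5 had an unadjusted p under 0.05, and 1 was called in the authors' deposited table. Of all tested genes limma called 2.46%, 18.4% had such a p, and the authors' deposited table called 5.22%. Of 13 genes that act on retrotransposon RNA or DNA 9 were tested. Dicer1, which makes the endogenous siRNAs of mouse oocytes, was the 1 gene called, at 88.2 ± 2.76 FPKM in GTWT, 76.7 ± 3.22 in GTD272 and 81.1 ± 1.72 in GT (SD, n = 4 each). Adar and Samhd1, the next in mean level over all libraries, did not pass. Dicer1 was 0.20 higher in GTWT than in GTD272 (adjusted p = 0.0397), and 10 of the 12 single-library omissions ended the call (0.0522 to 0.110), as did fitting those groups alone (0.109) and leaving out the trend (0.106). The authors' deposited table gives Dicer1 a q-value of 0.0992 for GTWT and GTD272, which does not pass.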
